A study of Mus musculus with 5 samples.

Results

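A set of 8 genes of cholesterol synthesis and its control was followed through the circulating immune cells of mice with diet-induced heart failure with preserved ejection fraction. They were Hmgcs1, Idi1, Fdps, Fdft1, Sqle, Lss, Insig1 and Srebf2, taken by gene symbol from the 33696 genes of the deposited matrices, where each symbol named 1 row. The set holds 6 enzymes and 2 regulators. None of the 8 codes for a receptor or carrier that takes cholesterol into the cell, so uptake is described here only through a separate list of other genes.

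Mononuclear cells from the blood of C57BL/6N mice had been frozen, thawed and captured in droplets for single-cell sequencing of RNA 3′ ends. The group called NO2-OA below (1 library) was fed high-fat diet (HFD) and given L-NAME, which blocks nitric oxide synthesis, over 15 weeks, and also received NO2-OA, a nitrated oleic acid, in the last 4 weeks. HFD + L-NAME mice (2 libraries) had the same 15-week regimen alone, and chow mice (2 libraries) had regular food. The labels do not say whether a library is 1 animal or a pool, so p-values measure only the spread between these libraries, which may be technical, and the NO2-OA library has no replicate of its own.

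Cholesterol is built from acetyl-CoA in the endoplasmic reticulum and cytosol. Hmgcs1 makes HMG-CoA, the precursor of mevalonate, Idi1 and Fdps turn the mevalonate-derived isoprene units into farnesyl diphosphate, Fdft1 (squalene synthase) joins farnesyl units into squalene, and Sqle and Lss oxidise and close squalene into lanosterol, the first sterol. Srebf2 codes for SREBP-2, a membrane-bound transcription factor that is cut free and raises the transcription of these enzyme genes, of Insig1 and of its own gene when membrane sterol is low, while Insig1 protein holds the SREBP escort in the endoplasmic reticulum when sterol is plentiful.

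SREBP-2 is known to bind sterol regulatory elements in promoters, and NF-Y, which binds CCAAT boxes, is a known partner. RefSeq promoters (GRCm38.p6, 250 bases before to 50 after the annotated start) were at hand for 5 of the 8 genes, Hmgcs1, Insig1, Idi1, Lss and Srebf2. Sqle, Fdft1 and Fdps were not matched. Of the 3 promoters below, Srebf2 and Idi1 are shown because they had the smallest p-values in the comparisons that follow. Hmgcs1 is shown because it was the one matched promoter with an exact match to the motif TCACNCCAC. Capitals mark that motif and CCAAT, which reads ATTGG on the strand printed.
Srebf2, chr15:82147019-82147318, plus strand: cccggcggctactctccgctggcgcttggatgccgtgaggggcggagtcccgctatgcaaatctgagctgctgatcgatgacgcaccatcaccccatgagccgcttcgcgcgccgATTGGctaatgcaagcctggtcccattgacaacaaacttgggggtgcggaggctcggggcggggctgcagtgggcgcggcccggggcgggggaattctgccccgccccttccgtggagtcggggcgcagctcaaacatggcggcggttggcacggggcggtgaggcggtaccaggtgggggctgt
Idi1, chr13:8885356-8885655, plus strand: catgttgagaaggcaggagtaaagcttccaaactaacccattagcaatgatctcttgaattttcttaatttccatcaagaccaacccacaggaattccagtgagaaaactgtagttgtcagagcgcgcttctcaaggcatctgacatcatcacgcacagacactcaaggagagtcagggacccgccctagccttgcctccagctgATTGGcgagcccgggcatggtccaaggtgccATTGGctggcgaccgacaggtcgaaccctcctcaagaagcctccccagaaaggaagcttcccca
Hmgcs1, chr13:119690101-119690400, plus strand: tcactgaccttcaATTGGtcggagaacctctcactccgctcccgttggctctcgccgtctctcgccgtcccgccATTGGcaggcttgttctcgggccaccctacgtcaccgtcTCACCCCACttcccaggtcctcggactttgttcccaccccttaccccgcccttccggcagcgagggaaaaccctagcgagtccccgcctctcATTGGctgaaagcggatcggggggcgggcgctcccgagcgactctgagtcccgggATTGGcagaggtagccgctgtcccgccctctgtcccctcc

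Both strands were searched for TCACNCCAC, a form of the sterol regulatory element, and for CCAAT, which does not overlap it. Hmgcs1 held 1 TCACNCCAC, at -137 from the annotated start (position 0), and 1.24% of the 32851 promoters in the table held at least 1. The longer 10-base form of that element, searched with no mismatch, was in none of the 5, and in 0.0913% of all promoters. Near matches were not counted in any promoter. The Srebf2 sequence above holds a stretch that differs from TCACNCCAC only in its last base and lies before the marked ATTGG. The lack of an exact match in Srebf2 therefore does not show that its promoter has no such element. Every one of the 5 promoters held CCAAT, with 4 in Hmgcs1, 2 in Idi1 and 1 each in Insig1, Lss and Srebf2, against 37.4% of all promoters with at least 1. These matches describe letters, and no binding was measured here.

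The matrices held 71216133 to 122022000 UMIs (unique molecular identifiers, each 1 captured RNA molecule) in 8488 to 17997 barcodes per library, of which 7156 to 14723 cells were kept. Any 2 libraries shared at most 0.613% of the barcodes of the smaller one. Clusters were named from marker genes, and levels are UMIs per 1000000 UMIs (UPM) of a cell class in a library. Macrophage-like cells were found in the second HFD + L-NAME library (308 cells) and the second chow library (100 cells), with 0 cells in the other 3 libraries. A single cluster of 453 cells carried markers of both conventional and plasmacytoid dendritic cells and is called the dendritic cluster. Just 2 of its cells came from the NO2-OA library, which is therefore left out of its values. The other libraries gave 79 and 101 cells (HFD + L-NAME) and 118 and 153 cells (chow). This count depended on the doublet filter. With predicted doublets kept, the like cluster held 42 cells of the NO2-OA library, 96 and 118 of HFD + L-NAME and 175 and 172 of chow.

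Across cell classes, the 8 genes were most abundant in the dendritic cluster and least in platelet-like and erythroid-like cells. Their summed level was 404.4 ± 53.7 UPM in the dendritic cluster (SD, n = 4 libraries), followed by 211 ± 34.9 UPM in regulatory T-like, 193 ± 25.9 UPM in B-like, 190.2 ± 39.0 UPM in classical monocyte-like and 188.7 ± 56.8 UPM in non-classical monocyte-like cells (SD, n = 5 libraries each). The lowest dendritic library, at 351.4 UPM, stood above every library of regulatory T-like cells, while the neighbours from regulatory T-like down to neutrophil-like cells (93.8 ± 28.4 UPM, n = 4) overlapped in pairs. Platelet-like cells had 9.02 ± 4.09 UPM (n = 5). Erythroid-like cells had 61.9 UPM in the NO2-OA library, 10.5 and 10.9 UPM in the HFD + L-NAME libraries and 17.4 and 14.7 UPM in the chow libraries. The sum counts molecules, so that it follows Srebf2 and Insig1 more than the other members. Classes were defined by clustering the same cells, so differences between them are described without a test.

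**Figure D1:**
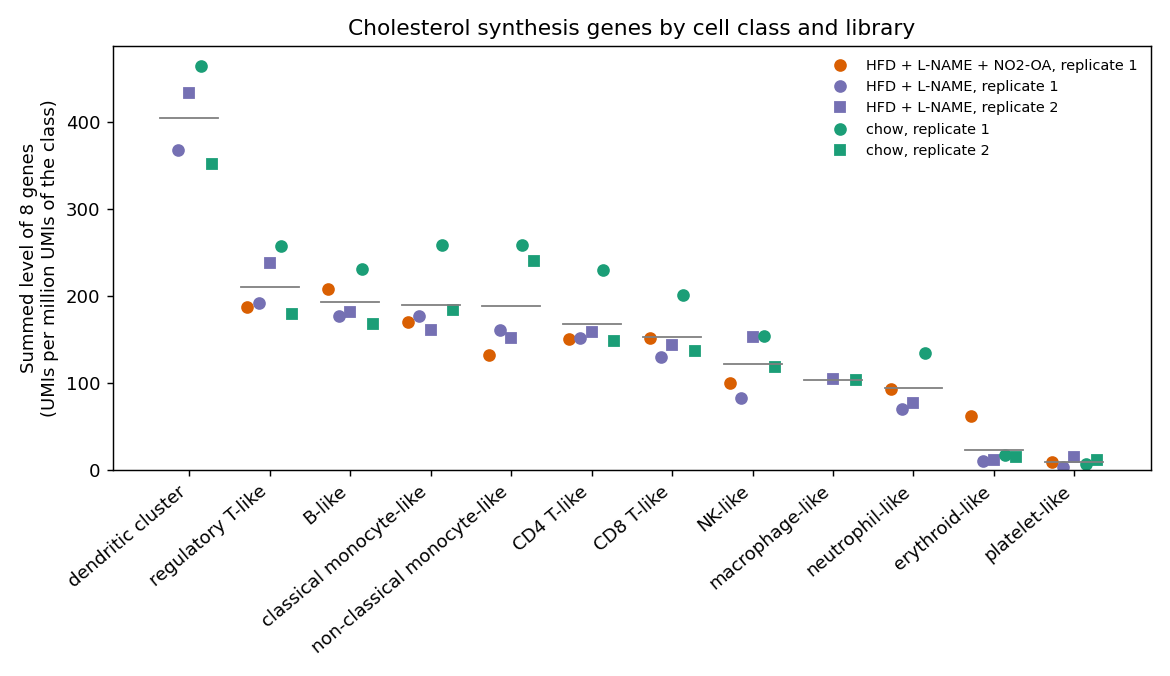
Summed level of the 8 genes in UPM (y axis) in each cell class (x axis), 1 point per library with at least 20 cells and a grey line at the mean over libraries. The dendritic cluster lies highest and platelet-like cells lowest.

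Each member had its own order over the classes. Srebf2, the regulator itself, averaged 160.3 ± 33.2 UPM in the dendritic cluster, 108.1 ± 12.6 UPM in B-like cells and 92.8 ± 35.1 UPM in non-classical monocyte-like cells, and its next neighbours, regulatory T-like (85.9 ± 12.7 UPM), CD4 T-like (78.1 ± 14 UPM), classical monocyte-like (70.6 ± 17.9 UPM) and CD8 T-like cells (65.5 ± 14.8 UPM), overlapped one after another. Lower still were neutrophil-like (51 ± 16.8 UPM), NK-like (40.5 ± 19.7 UPM) and macrophage-like cells (22.8 ± 0.184 UPM, n = 2). Only the dendritic cluster was separated from its neighbour in that order down to these classes.

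Insig1, the sterol-dependent anchor, had another order, with monocytes and regulatory T cells near the top. It averaged 77.2 ± 16.9 UPM in the dendritic cluster, 69.6 ± 13.5 UPM in classical monocyte-like, 59.4 ± 18.5 UPM in regulatory T-like, 51.6 ± 14.5 UPM in non-classical monocyte-like and 50.4 ± 5.12 UPM in macrophage-like cells. B-like (30.3 ± 6.53 UPM), CD4 T-like (30.4 ± 10.1 UPM) and CD8 T-like cells (29.7 ± 6.97 UPM) lay close together below them, and neighbours overlapped from the dendritic cluster down to neutrophil-like cells (23.6 ± 8.76 UPM).

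Among the enzymes, Hmgcs1 at the head of the pathway reached 37 ± 13.3 UPM in the dendritic cluster and, among lymphocytes, 27.8 ± 7.28 UPM in CD8 T-like, 22.9 ± 6.78 UPM in CD4 T-like, 22 ± 6.44 UPM in regulatory T-like and 21.6 ± 4.71 UPM in B-like cells, all overlapping. Monocytes had less Hmgcs1 on average, 19.5 ± 4.84 UPM in the non-classical and 15.8 ± 4.06 UPM in the classical class. The mean of Insig1 was in the reverse order between these monocytes and the CD4 and CD8 T-like cells.

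Fdps and Idi1, neighbours in the isoprenoid steps, were the members for which the dendritic cluster stood furthest from the other classes. Fdps averaged 60.8 ± 8.62 UPM there, against 10.1 ± 5.66 UPM in regulatory T-like cells, the next class, and 9.45 ± 3.49, 8.83 ± 1.20 and 6.16 ± 1.54 UPM in classical monocyte-like, CD4 T-like and B-like cells. Idi1 averaged 38.5 ± 12.0 UPM in the dendritic cluster, against 10.2 ± 1.68 UPM in B-like cells, the next class, and 5.84 ± 3.80 UPM in non-classical monocyte-like cells. For both genes the lowest of the 4 dendritic libraries exceeded the highest library of any other class. For the later enzymes the next class was closer. Fdft1 was near-equal in the dendritic cluster (14 ± 3.37 UPM) and regulatory T-like cells (13.7 ± 4.52 UPM), Sqle had 14.2 ± 5.16 and 9.17 ± 3.03 UPM in the same classes, and Lss had its highest mean, 3.47 UPM, in macrophage-like cells (n = 2).

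**Figure D2:**
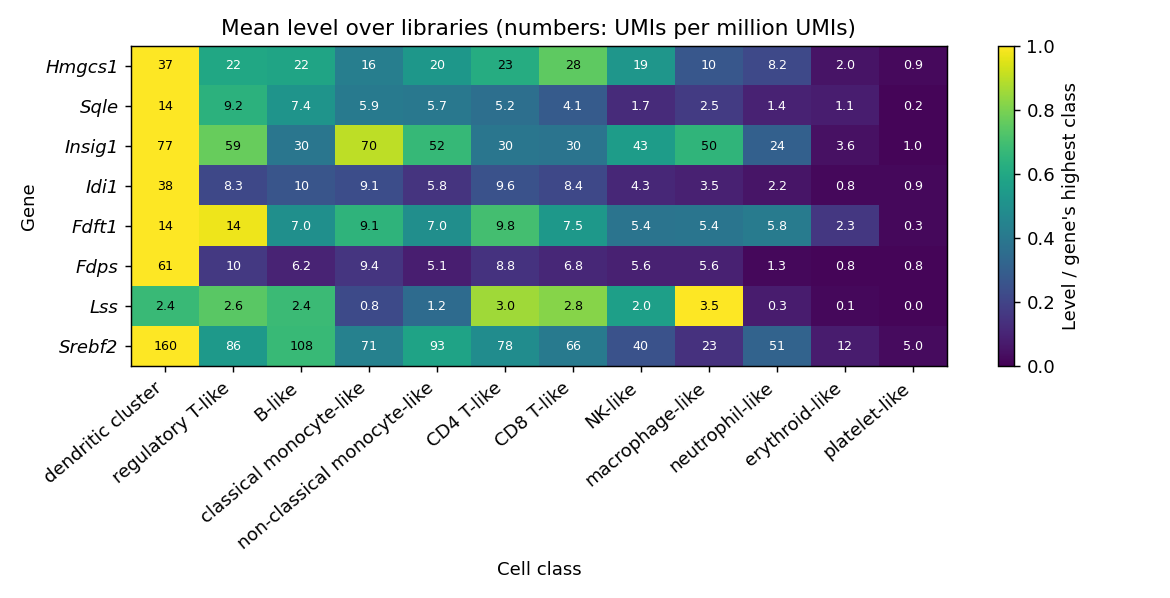
Mean level over libraries of each gene (rows) in each cell class (columns). Numbers are UPM and colour is the level relative to the highest class of that gene. The dendritic cluster is the highest class for 7 of the 8 genes, Fdps and Idi1 fall off most steeply from it, and Insig1 stays high in monocyte-like and regulatory T-like cells.

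The dendritic cluster was split by its marker UMIs, a division added after the data were seen. Plasmacytoid dendritic cells are the main interferon producers of blood, and conventional dendritic cells present antigen to T cells. In the 82 cells with more plasmacytoid than conventional marker UMIs, Siglech reached 1629 UPM, against 15.7 UPM in the 338 cells with more conventional marker UMIs. Siglech was itself among the markers that defined the split. Of the conventional markers used, Cd209a had 93.2 UPM in the plasmacytoid-marker and 500.7 UPM in the conventional-marker cells. Clec10a, another of them, had 193.7 and 160.1 UPM in the same order, so the parts were not cleanly separated lineages. Fdps had 122.2 UPM (exact Poisson 95% interval 103.5 to 143.2) in the plasmacytoid-marker cells and 49.3 UPM (43.7 to 55.3) in the conventional-marker cells. Idi1 had 82.8 UPM (67.6 to 100.4) and 27.7 UPM (23.5 to 32.3) in the same order, Insig1 had 115.7 UPM (97.6 to 136.2) and 69.0 UPM (62.4 to 76.1), and Fdft1 had 29.7 UPM (20.9 to 41.0) and 10.4 UPM (7.92 to 13.4). Lss had 7.23 UPM (3.31 to 13.7) and 0.865 UPM (0.281 to 2.02), on 9 and 5 UMIs. For these 5 genes the intervals did not meet. For the other 3 they overlapped, with Hmgcs1 at 43.4 UPM (32.6 to 56.6) and 38.7 UPM (33.8 to 44.2), Sqle at 20.1 UPM (13 to 29.7) and 13.3 UPM (10.5 to 16.6), and Srebf2 at 146.3 UPM (125.8 to 169.1) and 162 UPM (151.8 to 172.7).

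The 2 libraries with at least 20 cells of each kind gave the same order for the isoprenoid enzymes. Fdps had 131.7 UPM in plasmacytoid-marker cells and 51.7 UPM in conventional-marker cells of the second HFD + L-NAME library, and 134.5 and 39.9 UPM in those of the second chow library. Idi1 had 93.9 and 31.7 UPM in that HFD + L-NAME library and 64.5 and 17.4 UPM in that chow library. Insig1 and Fdft1 were also higher in the plasmacytoid-marker cells of both libraries. Hmgcs1, Sqle and Srebf2 differed in direction between the 2 libraries. Hmgcs1 had 28.9 UPM in plasmacytoid-marker and 58.6 UPM in conventional-marker cells of that HFD + L-NAME library, and 67.3 and 41.3 UPM in those of that chow library. The intervals cover counting error only, and the cluster's cells held 2.4 times the median UMIs of their libraries. The part of doublets in these levels was not tested.

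**Figure D3:**
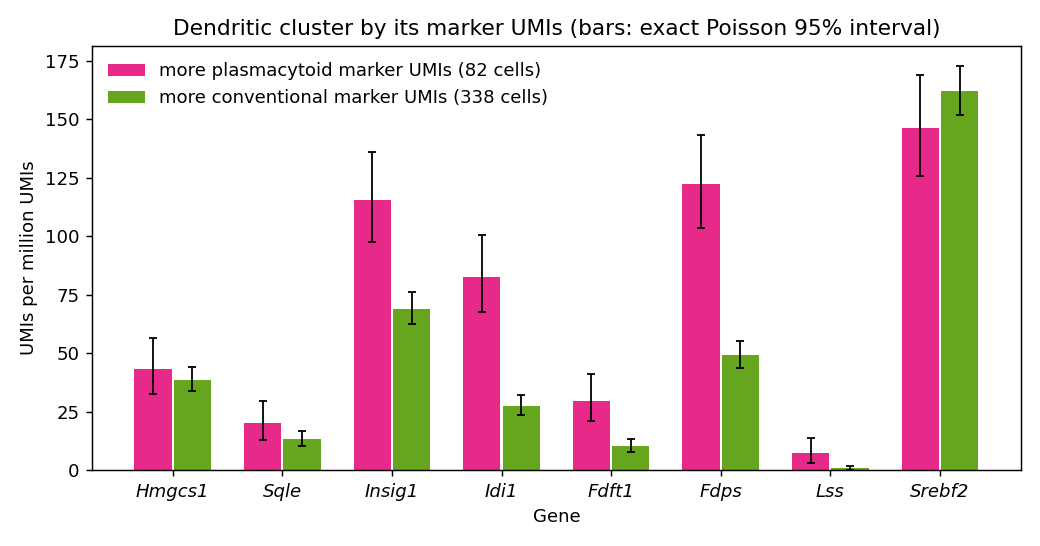
Level of each gene in UPM (y axis, starting at 0) in dendritic-cluster cells with more plasmacytoid (pink) or more conventional (green) marker UMIs, all libraries together, with exact Poisson 95% intervals. The intervals of Fdps, Idi1, Insig1, Fdft1 and Lss are separate, with the plasmacytoid-marker cells higher, and those of Hmgcs1, Sqle and Srebf2 overlap.

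Single cells held few molecules of these genes. After each cell was thinned to 2000 UMIs, 18.2% ± 1.74 of B-like cells and 15.9% ± 5.77 of non-classical monocyte-like cells had a Srebf2 UMI, and 9.93% ± 2.32 of the same monocytes had an Insig1 UMI (SD, n = 5 libraries each). Without thinning these shares were 42.4%, 43.7% and 31.3%. Platelet-like cells, taken as the background from free RNA, had a Srebf2 UMI in 0.897% ± 1.40 of thinned cells and 1.01% of all cells. Their median depth was 857 to 5233 UMIs per library, against 6842 to 11066 UMIs in non-classical monocyte-like and 5206 to 7806 UMIs in B-like cells. Thinning left out 6 non-classical monocyte-like cells of the NO2-OA library, 8 and 3 from HFD + L-NAME and 19 and 18 from chow, but 70, 67, 1496, 60 and 206 platelet-like cells of the same 5 libraries. The platelet-like cells that remained were 30, 478, 161, 629 and 52 in the same order, so the background share rests on few cells in the NO2-OA and second chow libraries.

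The first comparison asks what the HFD + L-NAME regimen did to these genes within a class. Tests were run in 6 classes that reached 50 cells in each library (B-like, T-like, regulatory T-like, classical and non-classical monocyte-like, platelet-like). No member passed a false discovery rate of 0.05 against chow with edgeR's quasi-likelihood test, out of 38 gene and class pairs that passed the filter on low counts. Over all genes, 0% were called in B-like, T-like, classical monocyte-like and platelet-like cells, 0.0706% in regulatory T-like and 0.0178% in non-classical monocyte-like cells. Unadjusted p was under 0.05 for 2 of the pairs, both in non-classical monocyte-like cells, and DESeq2 called 0. Of all genes, 1.26% had such a p in B-like, 1.28% in T-like, 3.14% in regulatory T-like, 4.04% in classical monocyte-like, 2.78% in non-classical monocyte-like and 1.45% in platelet-like cells. Lss passed the filter in B-like and T-like cells alone. Srebf2 was the only member to pass it in platelet-like cells, at 2.25 to 9.05 UPM in the 5 libraries, where the other 7 members lay at 0 to 3.6 UPM.

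Non-classical monocyte-like cells, which patrol the vessel wall, had the smallest p-values. Most members had lower levels there in mice on the regimen, none past the threshold. Srebf2 had 56.3 UPM in the NO2-OA library, 65.6 and 82.8 UPM in the HFD + L-NAME libraries and 134.1 and 125.4 UPM in the chow libraries. All 3 libraries of mice on the regimen lay below both chow libraries. Its log2 fold change in HFD + L-NAME over chow was -0.81 ± 0.19 (approximate SE, edgeR adjusted p = 1, unadjusted p under 0.01). With no filter on low counts it passed the threshold at an edgeR adjusted p of 0.0378, within a range of 0.0378 to 1 over the alternatives.

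Idi1 had 2.53 UPM in the NO2-OA library, 4.68 and 2.52 UPM in the HFD + L-NAME libraries and 8.25 and 11.2 UPM in the chow libraries, again with no overlap between the HFD + L-NAME and chow groups. These are 7, 16 and 7 UMIs with the regimen and 52 and 62 UMIs on chow. The log2 fold change was -1.38 ± 0.45 in HFD + L-NAME over chow (edgeR adjusted p = 1, unadjusted p under 0.05). Insig1 had 40.4 UPM in the NO2-OA library, 56.2 and 33.5 UPM in the HFD + L-NAME libraries and 69.7 and 58.2 UPM in the chow libraries, a log2 fold change of -0.49 ± 0.29 in HFD + L-NAME over chow (edgeR, adjusted p = 1).

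The remaining enzymes had fold changes below 0 that did not pass the test. Hmgcs1 had 13 UPM in the NO2-OA library, 17 and 19.8 UPM in the HFD + L-NAME libraries and 25.7 and 22.1 UPM in the chow libraries. Sqle had 6.14 UPM in the NO2-OA library, 6.15 and 2.52 UPM in HFD + L-NAME and 6.98 and 6.69 UPM in chow. Fdft1 had 8.67 UPM in the NO2-OA library, 6.44 and 3.96 UPM in HFD + L-NAME and 9.2 and 6.5 UPM in chow, so that for these 2 genes the gap between HFD + L-NAME and chow was small. Log2 fold changes in HFD + L-NAME over chow were -0.38 ± 0.26 for Hmgcs1, -0.61 ± 0.49 for Sqle, -0.57 ± 0.43 for Fdft1 and -0.51 ± 0.48 for Fdps. Fdps overlapped between the groups, at 3.51 and 5.4 UPM in HFD + L-NAME against 4.44 and 8.31 UPM in chow, and Lss, at 0.476 to 1.63 UPM in the 5 libraries, was too rare to be tested.

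Counted over all 8 members, 6 had both HFD + L-NAME libraries below both chow libraries in non-classical monocyte-like cells and 0 had both above. Of the 11252 genes tested in this class, 14.4% were lower and 14.1% higher by that rule. The median log2 fold change of the 7 tested members was -0.57, against -0.01 over all genes, and leaving out the first HFD + L-NAME library gave -0.96. The summed level was 132.1 UPM in the NO2-OA library, 161 and 151.6 UPM in HFD + L-NAME and 258.8 and 240 UPM in chow. Within the libraries numbered 1 the log2 ratio of HFD + L-NAME to chow sums was -0.685, and within those numbered 2 it was -0.662. No set test was run, and the members are not independent of each other.

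**Figure D4:**
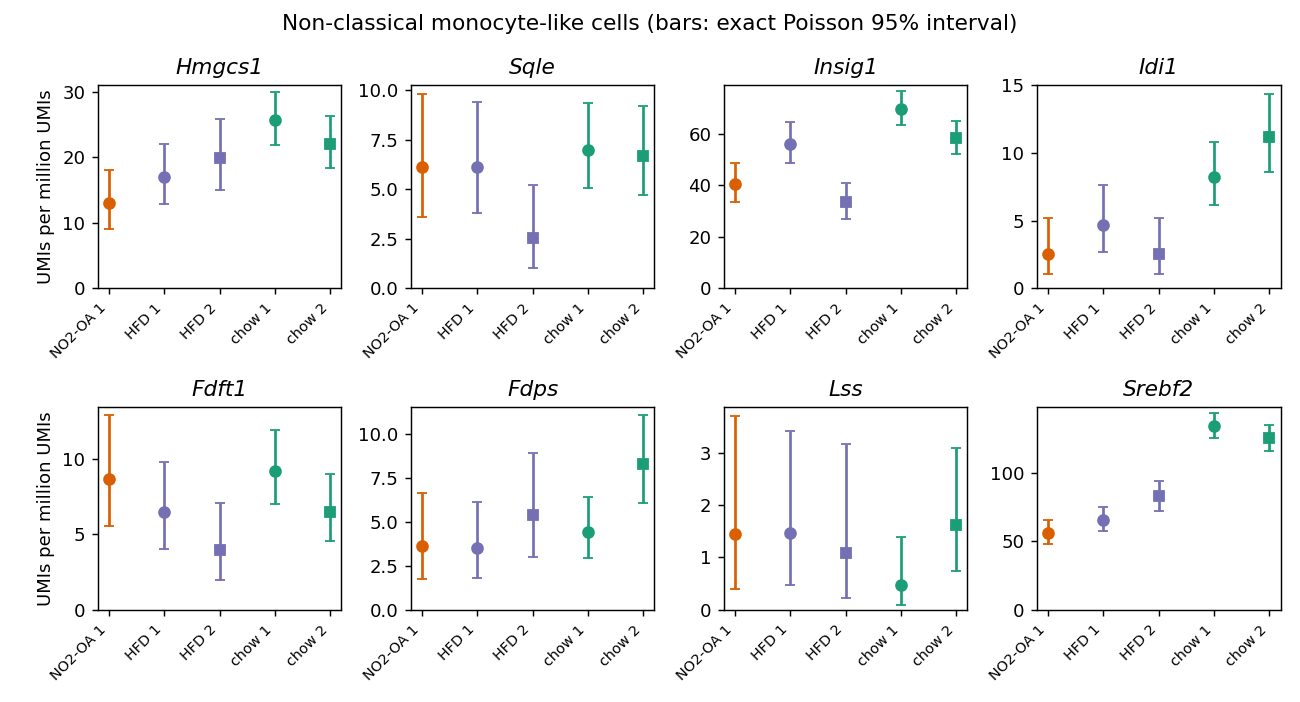
Level of each of the 8 genes in non-classical monocyte-like cells in UPM (y axes, each starting at 0, on separate scales) in the NO2-OA library, the 2 HFD + L-NAME libraries and the 2 chow libraries (x axes), with exact Poisson 95% intervals. Srebf2 lies at 56.3 to 82.8 in the mice on the regimen and at 125.4 and 134.1 on chow, and Idi1 shows a like gap on far fewer UMIs.

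Red-cell RNA moved with the regimen in the same cells. The 7 erythroid markers, none of them at 0, summed to 14330 UPM in non-classical monocyte-like cells of the NO2-OA library, 7772 and 4768 UPM in HFD + L-NAME and 94.2 and 44.6 UPM in chow. In cells with at most 1 UMI of those markers, a restriction added after the data were seen, the summed level of the 8 genes was 137.4 UPM in the NO2-OA library (92 cells), 162.7 and 137.8 UPM in HFD + L-NAME (226 and 30 cells) and 259.3 and 243 UPM in chow (687 and 515 cells). Srebf2 in those cells was 57.4 UPM in the NO2-OA library, 68.5 and 74.5 UPM in HFD + L-NAME and 132.1 and 126.2 UPM in chow. The restriction kept 26.7% of the class in the NO2-OA library, 57.9% and 12.7% in HFD + L-NAME and 85.6% and 92% in chow. For Srebf2 and the sum, the HFD + L-NAME and chow groups did not overlap in these cells. The share of all genes without overlap in them was not counted. The second HFD + L-NAME library kept 37 UMIs of the 8 genes in these cells, 20 of them Srebf2. Hmgcs1 overlapped there, with 20.9 UPM in the NO2-OA library, 15.2 and 29.8 UPM in HFD + L-NAME (26 and 8 UMIs) and 27.4 and 22.7 UPM in chow, and Idi1 had 0, 4 and 0 UMIs with the regimen, too few to compare. The 8 classical monocyte markers summed to 3087 UPM in the NO2-OA library, 3791 and 4775 UPM in HFD + L-NAME and 2220 and 3514 UPM in chow, and their part in the result was not tested. Erythroid markers were also higher with the regimen in B-like cells (304.4 to 601 UPM, chow 122.3 and 69.3 UPM). So they were in T-like (399.9 to 697.8 UPM, chow 162.9 and 105.3 UPM) and regulatory T-like cells (305 to 2378 UPM, chow 116.9 and 69.05 UPM). Classical monocyte-like cells had 5669 UPM in the NO2-OA library, 2261 and 292.3 UPM in HFD + L-NAME and 640.9 and 47.5 UPM in chow. The part of red-cell RNA in the levels of the 8 genes was not tested in any of these classes, non-classical monocyte-like cells included.

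Classical monocyte-like cells, the inflammatory monocytes of blood, had less clear values. Hmgcs1 had 13 UPM in the NO2-OA library, 12.5 and 13.1 UPM in HFD + L-NAME and 21.3 and 19 UPM in chow, with no overlap between the HFD + L-NAME and chow groups, and a log2 fold change of -0.61 ± 0.32 (edgeR, adjusted p = 1). Insig1 had 67 UPM in the NO2-OA library, 62.2 and 59.5 UPM in HFD + L-NAME and 93.1 and 66 UPM in chow. Srebf2 had 62.8 UPM in the NO2-OA library, 65.9 and 56.3 UPM in HFD + L-NAME and 101.8 and 66 UPM in chow. Here the first chow library was far above the second, and the HFD + L-NAME libraries were closer to the second chow library for both regulators. Sqle had 5.29 UPM in the NO2-OA library, 5.44 and 4.38 UPM in HFD + L-NAME and 8.72 and 5.58 UPM in chow, and Idi1 had 6.32 UPM in the NO2-OA library, 9.27 and 8.14 UPM in HFD + L-NAME and 13.25 and 8.47 UPM in chow. Fdft1 had 7.93 UPM in the NO2-OA library, 7.45 and 8.76 UPM in HFD + L-NAME and 14.3 and 7.14 UPM in chow. Idi1 and Fdft1 overlapped between HFD + L-NAME and chow. So did Fdps, with 7.01 UPM in the NO2-OA library, 13.3 and 10.02 UPM in HFD + L-NAME and 4.88 and 12.04 UPM in chow, and Lss, at 0 to 1.25 UPM in the 5 libraries, was not tested.

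In all, 4 of the 8 members did not overlap in classical monocyte-like cells and were lower in HFD + L-NAME, where 17.4% of the genes tested in this class were, and 0 were higher (12.7% of genes). The median log2 fold change of the 7 tested members was -0.35. Without the first chow library it was -0.07, and without the second -0.69. At the finer clustering these cells formed 2 clusters. The one led by Vcan and Chil3 held 601 cells of the NO2-OA library, 324 and 38 of HFD + L-NAME and 10 and 1 of chow, and the one led by F13a1 held 11 cells of the NO2-OA library, 27 and 77 of HFD + L-NAME and 293 and 372 of chow. The second HFD + L-NAME library thus had more of these cells in the F13a1 cluster, as both chow libraries did, and the part of this make-up in the levels was not tested.

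The first chow library stood apart in most classes. Among 40 member and class pairs (all 8 genes, 5 classes without platelet-like cells), it held the highest level of the 5 libraries in 27, against 1 for the NO2-OA library, 1 and 7 for the HFD + L-NAME libraries and 4 for the second chow library. Over all tested genes it was highest for 17.5% of genes in non-classical monocyte-like, 25.4% in classical monocyte-like, 25.5% in regulatory T-like, 28.3% in T-like and 29.1% in B-like cells. The summed level of the members in T-like cells was 153 UPM in the NO2-OA library, 141.8 and 149.4 UPM in HFD + L-NAME, 216.8 UPM in the first chow library and 141 UPM in the second.

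Clusters within lymphocytes were uneven too. The T-like cluster led by Elovl6 and Atp10a held 3252 cells of the NO2-OA library, 1045 and 37 of HFD + L-NAME and 168 and 70 of chow, and the B-like cluster led by Ebf1 and Ighd held 91, then 1758 and 280, then 2757 and 1132 cells. The part of this make-up in the levels below was not tested.

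Lymphocyte values depended on which chow library they were set against. In B-like cells Srebf2 had 113.2 UPM in the NO2-OA library, 97.1 and 105.1 UPM in HFD + L-NAME and 127.4 and 97.8 UPM in chow, so that the groups overlapped. The other members in B-like cells also overlapped, except Lss, which had 2.22 UPM in the NO2-OA library, 2.42 and 2 UPM in HFD + L-NAME and 2.78 and 2.45 UPM in chow. Over the 5 libraries Hmgcs1 lay at 17.4 to 27.1 UPM, Sqle at 5.19 to 9.74 UPM, Insig1 at 23.7 to 39.8 UPM, Idi1 at 8.15 to 12.05 UPM, Fdft1 at 5.39 to 7.77 UPM and Fdps at 4.16 to 8.31 UPM in these cells.

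In T-like cells Srebf2 had 68.2 UPM in the NO2-OA library, 60.4 and 64.9 UPM in HFD + L-NAME and 95.5 and 65.4 UPM in chow, where the second chow library was nearly level with the second HFD + L-NAME library (log2 ratio of HFD + L-NAME to chow -0.0123). Fdft1, the other member lower in HFD + L-NAME there, had 9.73 UPM in the NO2-OA library, 7.35 and 5.64 UPM in HFD + L-NAME and 11.7 and 7.38 UPM in chow, again nearly level in 1 HFD + L-NAME and 1 chow library. Over the 5 libraries of T-like cells Hmgcs1 lay at 19.6 to 39.8 UPM, Insig1 at 22.9 to 42.3 UPM, Idi1 at 7.62 to 11.7 UPM, Fdps at 6.35 to 8.45 UPM, Sqle at 3.88 to 6.49 UPM and Lss at 2.27 to 3.76 UPM. The summed level was lower with the regimen in the pair of libraries numbered 1, with log2 ratios of HFD + L-NAME to chow of -0.384 in B-like, -0.613 in T-like and -0.427 in regulatory T-like cells, but not in the pair numbered 2, with 0.109, 0.0833 and 0.414 in the same classes.

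By the rule of non-overlap, 1 of 8 members was lower in B-like cells (12.7% of all genes), 2 of 8 in T-like cells (14.2%) and 1 of 8 in regulatory T-like cells (16%). A single member was higher by that rule in any of these classes, Fdft1 in regulatory T-like cells, with 14.5 UPM in the NO2-OA library, 13.6 and 20.7 UPM in HFD + L-NAME and 10.4 and 9.11 UPM in chow (higher were 11.6% of all genes there, 10.1% in B-like and 9.87% in T-like cells). The lower one in regulatory T-like cells was Idi1, with 3.56 UPM in the NO2-OA library, 6.79 and 8.1 UPM in HFD + L-NAME and 13.9 and 9.11 UPM in chow. The other members overlapped there, with Srebf2 at 70.7 to 99.9 UPM over the 5 libraries, Insig1 at 38.9 to 87.2 UPM, Hmgcs1 at 15.9 to 28.9 UPM, Fdps at 5.75 to 19.8 UPM, Sqle at 5.22 to 13.5 UPM and Lss at 1.66 to 3.6 UPM.

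Median log2 fold changes of the members were -0.18 in B-like, -0.20 in T-like and 0.08 in regulatory T-like cells. Splitting the T-like cells gave -0.18 for CD4 T-like and -0.19 for CD8 T-like cells. Without the first chow library the medians were 0.06 in B-like, 0.05 in T-like and 0.36 in regulatory T-like cells, against -0.53 in non-classical monocyte-like cells. Without the second chow library they were -0.29 in B-like, -0.50 in T-like and -0.17 in regulatory T-like cells. Leaving out the first HFD + L-NAME library gave 0.35 in regulatory T-like cells and leaving out the second gave -0.22, so that the sign there depended on the library left out. In B-like cells the same steps gave -0.30 and -0.05.

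**Figure D5:**
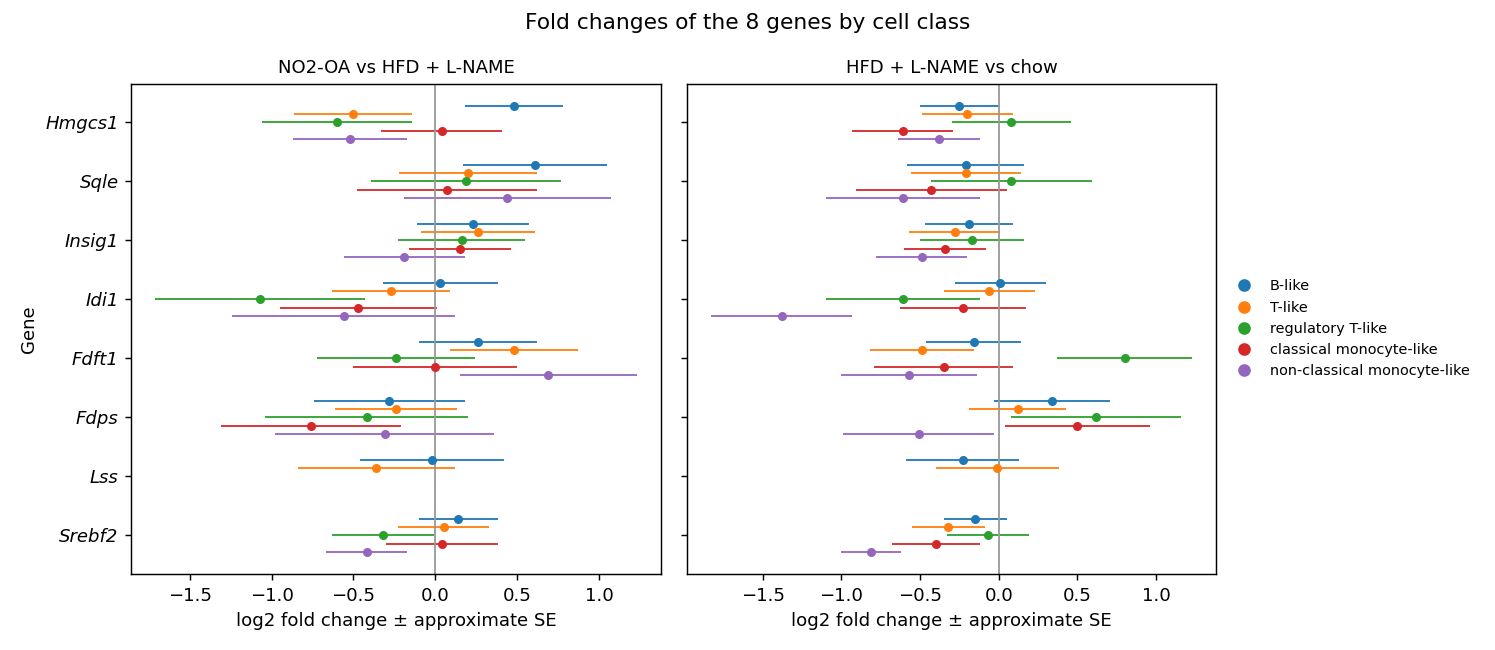
Log2 fold changes with their approximate SE (x axes) of the genes that passed the filter (y axis) in 5 cell classes (colours), for NO2-OA against HFD + L-NAME (left) and HFD + L-NAME against chow (right). In the right panel the purple points of non-classical monocyte-like cells lie below 0 for all 7 tested genes, from -0.38 to -1.38.

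The second comparison asks what NO2-OA added to the regimen. It sets 1 library against the 2 HFD + L-NAME libraries that also entered the first comparison, and assumes that the lone library varies like the others. No member passed the threshold (edgeR), with 0 of 38 pairs at an unadjusted p under 0.05 and 0 called by DESeq2. Such a p was held by 1.5% of all genes in B-like, 1.47% in T-like, 2.38% in regulatory T-like, 1.6% in classical monocyte-like, 2.2% in non-classical monocyte-like and 5.38% in platelet-like cells. Over all genes, 0% were called in B-like, T-like and both monocyte-like classes, 0.0618% in regulatory T-like and 0.0319% in platelet-like cells.

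In non-classical monocyte-like cells Srebf2 was lowest in the NO2-OA library, at 56.3 UPM against 65.6 and 82.8 UPM in HFD + L-NAME. The log2 fold change was -0.42 ± 0.25 (edgeR, adjusted p = 1), and within the libraries numbered 1 the log2 ratio was -0.219. Hmgcs1 was also below both HFD + L-NAME libraries, at 13 UPM against 17 and 19.8 UPM. Fdft1 was above both, at 8.67 UPM against 6.44 and 3.96 UPM (log2 fold change 0.69 ± 0.54). Insig1, Idi1, Sqle, Fdps and Lss in the NO2-OA library lay between the HFD + L-NAME values. In B-like cells the NO2-OA library was above both HFD + L-NAME libraries for 5 of 8 members (34.2% of all genes were), among them Hmgcs1, at 26.2 UPM against 18 and 19.1 UPM, and Sqle, at 9.74 UPM against 7.27 and 5.25 UPM. The chow libraries alone lay about as far apart in these cells, at 27.1 and 17.4 UPM for Hmgcs1 and 9.49 and 5.19 UPM for Sqle.

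Hmgcs1 had the opposite sign in T cells. T-like cells held 19.6 UPM of Hmgcs1 in the NO2-OA library, against 23.5 and 29.4 UPM in HFD + L-NAME, and regulatory T-like cells held 15.9 UPM, against 19.3 and 28.8 UPM. Insig1 in T-like cells was 32.9 UPM in the NO2-OA library, against 27.2 and 24.5 UPM in HFD + L-NAME. By the same rule 4 of 8 members were higher and 3 of 8 lower in T-like cells, where 42.2% of all genes were higher and 22.9% lower. Median log2 fold changes of the tested members were 0.19 in B-like, -0.10 in T-like, -0.32 in regulatory T-like, 0.04 in classical monocyte-like and -0.31 in non-classical monocyte-like cells. They moved with 1 library or setting. The non-classical monocyte-like median was 0.01 when the first HFD + L-NAME library was left out and -0.69 in cells thinned to 2000 UMIs, and the classical one ran from -0.17 (replicate block) to 0.27 (thinned cells). The regulatory T-like median was -0.53 when that library was left out, -0.04 when the second one was and -0.20 with the replicate block. The T-like median was -0.06 and -0.03 in the same leave-outs and 0.02 in thinned cells, and the B-like one was 0.07 with the replicate block.

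Other genes of cholesterol handling were read from 5 lists. None of their members passed the false discovery rate in any of the 6 classes or either comparison. Of the 14 further synthesis enzymes, 12 were tested in non-classical monocyte-like cells, 8 of them with a fold change below 0 in HFD + L-NAME over chow (median -0.09, against -0.01 over all genes, of which 51.1% were below 0). Cyp51, which removes a methyl group from lanosterol, had 32.9 UPM in the NO2-OA library, 40.4 and 31.3 UPM in HFD + L-NAME and 70.4 and 60.9 UPM in chow, with no overlap between the HFD + L-NAME and chow groups and a log2 fold change of -0.86 ± 0.23 (edgeR adjusted p = 1). Msmo1, which acts later than Cyp51, had 32.5 UPM in the NO2-OA library, 23.4 and 23.8 UPM in HFD + L-NAME and 31.7 and 26.2 UPM in chow. Ggps1, which makes the geranylgeranyl lipid anchor of small GTPases rather than sterol, had 33.2 UPM in the NO2-OA library, 36.3 and 35.7 UPM in HFD + L-NAME and 34.3 and 42.5 UPM in chow.

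Sterol sensing and SREBP processing, 8 genes, had a median of -0.11 in non-classical monocyte-like cells in HFD + L-NAME over chow, with 5 of 8 below 0. The site-1 protease gene Mbtps1, which begins the release of SREBP, had 34.7 UPM in the NO2-OA library, 35.4 and 27.7 UPM in HFD + L-NAME and 27.9 and 41 UPM in chow. Stard4, a cytosolic sterol carrier named here after its values were seen, had 6.5 UPM in the NO2-OA library, 6.15 and 5.4 UPM in HFD + L-NAME and 11.6 and 13 UPM in chow, a log2 fold change of -1.07 ± 0.33 (edgeR adjusted p = 1). Both Cyp51 and Stard4 had their HFD + L-NAME values below both chow values, and they are among the genes counted next. Between HFD + L-NAME and chow, 3 of the 12 further enzymes tested were lower without overlap and 1 was higher. Of the 8 sensing and processing genes 3 were lower and 0 higher. Of all genes, 14.4% were lower and 14.1% higher by that rule.

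For uptake and lysosomal release genes the values were mixed. In non-classical monocyte-like cells 3 of 8 tested genes were below 0 in HFD + L-NAME over chow (median 0.09). Cd36, a scavenger receptor for oxidised lipoprotein and fatty acids, had 1060 UPM in the NO2-OA library, 959.3 and 1129 UPM in HFD + L-NAME and 1206 and 2055 UPM in chow (log2 fold change -0.63 ± 0.25, edgeR, adjusted p = 1), of which the second chow library alone was far above the rest. Lrp1, a large endocytic receptor, had 235.4 UPM in the NO2-OA library, 223.6 and 286.7 UPM in HFD + L-NAME and 173.6 and 267.8 UPM in chow. The lysosomal sterol carrier Npc2 had 193.1 UPM in the NO2-OA library, 226.8 and 228.3 UPM in HFD + L-NAME and 260.5 and 184.7 UPM in chow.

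Efflux and storage genes, several of them targets of the sterol-sensing receptor LXR, and SREBP-driven genes of fatty acid synthesis had medians of -0.04 and -0.02 in non-classical monocyte-like cells. Abcg1, a sterol exporter, had 603.6 UPM in the NO2-OA library, 569.2 and 454.9 UPM in HFD + L-NAME and 679.8 and 381.6 UPM in chow. Acaca, which makes malonyl-CoA, had 70 UPM in the NO2-OA library, 55.9 and 55.8 UPM in HFD + L-NAME and 69.5 and 73.9 UPM in chow. Both lists had fold changes on either side of 0 in each of the 6 classes in this comparison. In T-like cells Elovl6, a fatty acid elongase, had 309.1 UPM in the NO2-OA library, 231 UPM in the first and 29.8 UPM in the second HFD + L-NAME library, and 33.8 and 13.3 UPM in chow, with a log2 fold change of 2.56 ± 0.89 in HFD + L-NAME over chow (edgeR, adjusted p = 1). Its high values were those of the libraries with most cells of the cluster it leads.

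The members varied together only loosely over the B-like, CD4 T-like, CD8 T-like, regulatory T-like and both monocyte-like classes. The dendritic cluster and the NK-like, neutrophil-like, macrophage-like, erythroid-like and platelet-like cells were left out. Over these 30 class and library sums, Spearman correlations between pairs of members had a median of 0.129, with 21 of 28 above 0. They ran from -0.654 (Insig1 with Lss) to 0.591 (Idi1 with Srebf2). These points share libraries and cells, so no p is given. Hmgcs1 with Idi1 gave 0.525, Sqle with Srebf2 0.574 and Sqle with Insig1 0.535, while Fdps with Srebf2 gave -0.18.

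Outside the lists, 7716 genes with a mean of at least 10 UPM were ranked by Spearman correlation with the mean profile of the members. The ranking used 35 class and library sums, those of the classes compared above and of platelet-like cells. The 10 most alike were Ascc3 (0.821), Ivns1abp (0.814), Ubn1 (0.807), Pcna (0.805), Ewsr1 (0.794), Kctd10 (0.79), Golph3 (0.789), Ankrd12 (0.774), Yy1 (0.773) and Zfand6 (0.771). Without platelet-like cells, the class with the lowest levels, the same genes had correlations of 0.64 to 0.721 over 30 sums. Pcna is the sliding clamp of DNA replication and Yy1 a zinc-finger transcription factor.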

How the data were processed

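The deposited files hold 1 matrix of raw UMI counts per gene and cell barcode for each of 5 libraries, made by the authors with Cell Ranger 7.1.0, per the file headers. The submitters' processing notes also name bcl2fastq and the build mm39. The annotation release is not given in the sources used here.

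Barcodes with at least 200 genes and under 10% mitochondrial UMIs were kept, and the cells with the highest Scrublet scores, 0.8% of barcodes per 1000 barcodes, were removed as doublets. Cells were clustered with Leiden (scanpy 1.11.5, leidenalg 0.10.2) at resolution 1 on 40 components of 2000 genes with 20 neighbours. Clusters were named from marker lists with thresholds set after the data were seen, so names are rebuilt, and CD4 and CD8 T-like cells were taken from clusters at resolution 2. A cluster needed a marker score of 0.5, a margin of 0.2 over the next class and 3 markers in at least 10% of its cells. Between 0.626% and 1.59% of kept cells stayed unnamed.

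Counts summed per class and library entered the quasi-likelihood test of edgeR 4.0.16 under R 4.3.3 (low counts removed by filterByExpr, TMM scaling, Benjamini-Hochberg over all genes of a class), with all 5 libraries sharing 1 estimate of the spread. The code was run on simulated B-like and non-classical monocyte-like sums in which every gene had the same spread. That run does not show how the test performs on genes of uneven spread. An approximate SE was taken as |log2 fold change| divided by the root of F. Intervals are exact Poisson at 95% and cover counting error only. Alternatives were DESeq2 1.42.0, its size factors, no filter, a replicate block, each library left out, 4 libraries alone, doublets kept, a mitochondrial limit of 5%, resolution 2 and cells thinned to 2000 UMIs.

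The members, lists and tests were chosen with earlier results of these data known. The text gives the 8 members in every tested class, some as a range over the libraries, from each list members past the threshold or else up to 3 with the highest mean, and the 10 genes most alike. List members are given for the class the text describes and not for each class in full.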

Additional observations from a re-analysis of the deposited data

How the results depend on the processing

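Of the results recomputed under the alternatives, 361 values stayed within the spread or on their side of the threshold, 26 moved and 1 newly passed the threshold. For a class median the spread was the SD between pairs of libraries, so that a median could change sign and still count as stayed. No member was called in the main fit, so staying on its side meant staying uncalled. The counts therefore do not measure how stable the results were. The cause of each move was not tested. With no filter on low counts 1 member was called in HFD + L-NAME over chow, Srebf2 in non-classical monocyte-like cells (-0.84 on the log2 scale, edgeR adjusted p = 0.0378). Leaving out 1 library gave member medians of -0.69 to -0.07 in classical and -0.96 to -0.46 in non-classical monocyte-like cells for HFD + L-NAME over chow. For NO2-OA over HFD + L-NAME it gave 0.13 to 0.28 in B-like, -0.07 to 0.04 in classical monocyte-like, -0.31 to 0.01 in non-classical monocyte-like and -0.06 to 0.19 in CD8 T-like cells.

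In the same comparison, cells thinned to 2000 UMIs gave 0.02 in T-like, 0.27 in classical and -0.69 in non-classical monocyte-like cells, and the classical monocyte-like median was 0.07 with no filter, -0.02 at resolution 2 and -0.06 with doublets kept. Thinning gave a summed level of 183.8 UPM in classical monocyte-like cells of the NO2-OA library and 174.3 UPM in B-like cells of HFD + L-NAME. Platelet-like sums with doublets kept were 46.55 UPM in NO2-OA, 25.02 UPM in HFD + L-NAME and 39.82 UPM in chow, and with the 5% mitochondrial limit 0 UPM in NO2-OA and 13.91 UPM in chow. Unthinned shares of cells with a UMI were 42.4% for Srebf2 in B-like, and 43.7% for Srebf2 and 31.3% for Insig1 in non-classical monocyte-like cells.

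Libraries share only a replicate number. Deviations of the 2 libraries numbered 1 correlated at 0.141 to 0.531 over the classes, and with 2 pairs this does not show pairing. With the replicate block 0 members were called in either comparison, Srebf2 in non-classical monocyte-like cells gave -0.81 (edgeR adjusted p = 0.597), and the NO2-OA medians were 0.07 in B-like and -0.17 in classical monocyte-like cells. Depth limits the rarer members, with Idi1 at 7 to 62 UMIs and Sqle at 7 to 44 UMIs per library in non-classical monocyte-like cells.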
